A study of Mus musculus with 3 samples.

Results

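Small noncoding RNAs were read from gene tables of mouse bone marrow (BM) RNA-seq. The rows taken were those whose symbol names a microRNA (miRNA) gene or miRNA host transcript, a small nucleolar RNA (snoRNA) or a small Cajal body RNA (scaRNA), together with Rn7sk, Rmrp, Rpph1 and Terc. They came to 140 of the 17559 rows listed. The members were chosen by symbol, in a rule that also used the measured reads and RPKM of Rn7sk at 0, 3 and 5 days and already knew that Rn7sk was lower after treatment, so its values are given as a description. Of the 140 members, 132 carried their symbol in the tables, and 8, Rn7sk among them, were listed without a symbol and were named from their gene identifier.

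The BM cells came from C57BL/6 mice of 6 to 8 weeks. One group was labelled 0 days of recombinant LECT2, a secreted chemotactic protein, and its labels name no injected agent. The other groups received 300 μg/kg LECT2 by injection once a day for 3 or 5 days. Each group is 1 library, and the number of mice behind a library is not given in the sources used here, so no spread between animals could be estimated and no difference was tested.

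7SK RNA, the product of Rn7sk, is made by RNA polymerase III and holds the elongation factor P-TEFb in an inactive complex with Hexim and Larp7 proteins. Box C/D snoRNAs guide ribose methylation and box H/ACA snoRNAs guide pseudouridylation of ribosomal and spliceosomal RNA, and most of them are cut from introns of host genes, many of which encode ribosomal proteins. miRNAs are cut from hairpins in longer transcripts by Drosha and Dicer, and the short mature strand binds target mRNAs through its seed. The libraries were made from oligo(dT)-selected RNA broken into fragments of about 200 bp, whereas 7SK, RNase P RNA and most snoRNAs carry no long poly(A) tail and mature miRNAs are far shorter than these fragments. A miRNA row therefore counts reads over the hairpin or the transcript around it, not the mature miRNA.

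The sequence of Rn7sk is shown because this row held the most reads of the members at 0 days and had the lowest ratio at 5 days of those with at least 10 reads. Bases 1 to 300 of the 331-base GENCODE M21 transcript, which lies on the minus strand of chr9:78175303-78175633 (GRCm38), are printed with each GATC in capitals, the motif at which Hexim proteins contact 7SK near its start.
Rn7sk: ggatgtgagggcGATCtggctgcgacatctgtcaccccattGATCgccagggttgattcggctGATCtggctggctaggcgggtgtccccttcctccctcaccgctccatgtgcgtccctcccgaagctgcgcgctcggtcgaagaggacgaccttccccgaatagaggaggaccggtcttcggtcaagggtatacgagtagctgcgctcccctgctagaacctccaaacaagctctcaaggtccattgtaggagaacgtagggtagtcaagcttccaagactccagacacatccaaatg
GATC occurred 3 times, starting at bases 13, 42 and 64, and 6.33% of 131058 transcripts of at least this length hold it as many times in their first 300 bases on the transcript strand.

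Among the snoRNAs, Snora81 and Snora28 are shown for their higher counts in the treated libraries and Snora75 and Snora5c for their lower ones. Capitals mark the last ACA, or ATA where there is no ACA, that ends 2 to 4 bases before the 3′ end.
Snora81: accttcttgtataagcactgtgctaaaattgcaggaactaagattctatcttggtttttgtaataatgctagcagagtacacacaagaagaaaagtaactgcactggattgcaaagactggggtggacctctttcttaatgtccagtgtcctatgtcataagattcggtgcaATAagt
Snora28: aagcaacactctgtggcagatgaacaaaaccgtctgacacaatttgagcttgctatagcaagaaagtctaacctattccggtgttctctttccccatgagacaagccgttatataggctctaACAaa
Snora75: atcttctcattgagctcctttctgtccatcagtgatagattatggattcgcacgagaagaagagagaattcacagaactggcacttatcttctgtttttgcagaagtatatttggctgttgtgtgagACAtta
Snora5c: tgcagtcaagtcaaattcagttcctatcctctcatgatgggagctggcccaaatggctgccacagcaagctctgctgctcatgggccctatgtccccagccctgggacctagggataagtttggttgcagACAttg
All 30 H/ACA members had a GENCODE sequence, 28 with ACA in this window and 2 with ATA, and 38 of the 40 annotated mouse H/ACA genes hold ACA there. For the box C/D members with the most reads or the largest differences, capitals mark TGATGA, where present, and the last CTGA.
Snord22: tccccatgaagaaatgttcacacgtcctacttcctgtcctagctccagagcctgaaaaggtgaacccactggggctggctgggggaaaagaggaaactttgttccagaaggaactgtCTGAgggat
Snord16a: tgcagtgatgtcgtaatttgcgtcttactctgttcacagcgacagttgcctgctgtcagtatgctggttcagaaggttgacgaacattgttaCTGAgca
Snord14a: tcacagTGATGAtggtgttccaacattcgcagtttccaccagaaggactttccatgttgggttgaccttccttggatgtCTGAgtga
TGATGA followed by CTGA was found in 18 of 24 C/D members and in 75.3% of the 97 annotated C/D genes. The letters TGATGA are not in the Snord22 and Snord16a sequences.

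Mature miRNAs from RefSeq (GRCm38.p6) are shown for Mir703, Mir5125, Mir7-1, the Mir680 pair and the clusters of Mir27a, Mir17hg and Mir22hg, with the seed, bases 2 to 8, in capitals. Of 76 hairpin members, 70 had a mature sequence. The first 6 belong to the Mir17hg cluster and fall into 4 seeds, of which AAAGUGC is shared by miR-17-5p and miR-20a-5p and GUGCAAA by miR-19a-3p and miR-19b-3p.
mmu-miR-17-5p: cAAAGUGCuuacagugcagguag
mmu-miR-20a-5p: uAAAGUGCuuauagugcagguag
mmu-miR-18a-5p: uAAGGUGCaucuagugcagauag
mmu-miR-19a-3p: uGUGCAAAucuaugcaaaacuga
mmu-miR-19b-3p: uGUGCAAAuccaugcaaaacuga
mmu-miR-92a-3p: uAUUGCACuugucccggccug
mmu-miR-22-3p: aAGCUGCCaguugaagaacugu
mmu-miR-23a-3p: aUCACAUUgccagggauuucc
mmu-miR-27a-3p: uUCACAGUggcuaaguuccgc
mmu-miR-24-3p: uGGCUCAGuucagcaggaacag
mmu-miR-703: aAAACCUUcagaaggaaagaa
mmu-miR-5125: uCUGCCUGggauuuccuugu
mmu-miR-7a-5p: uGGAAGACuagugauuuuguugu
mmu-miR-680: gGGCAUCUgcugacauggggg
Among the hairpin members, 5 seeds were shared between members, as in Mir680-1 and Mir680-2, which give the identical miR-680.

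The libraries held 15523952, 15146983 and 15514673 reads on listed genes at 0, 3 and 5 days, and 1 read on a row of 100 bases is worth 0.644, 0.660 and 0.645 RPKM (reads per row length and per library total). Markers of marrow cell types were detected. The summed RPKM of 7 neutrophil markers was 138563, 107133 and 38100, and all 7 were at least 2-fold lower at 5 days than at 0 days. The other lists, as rows at least 2-fold higher and lower at 5 days, gave 1 and 0 of 4 promyelocyte markers, 0 and 4 of 7 erythroid, 0 and 0 of 6 B cell, 0 and 0 of 2 T cell, 2 and 0 of 4 macrophage and monocyte, 0 and 0 of 3 megakaryocyte and 0 and 2 of 3 osteolineage markers. Of the cell types foreign to marrow, the hepatocyte marker Alb had 1, 0 and 0 reads and the muscle list summed to 1.498, 0.650 and 0.361 RPKM. In bulk RNA, fewer cells of a type and less RNA per cell cannot be told apart, and the part of these shifts in cell types in the values below was not tested.

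Most members were at the edge of detection. In 81 members no library held more than 3 reads, in 32 the highest library held 4 to 9 reads, and 27 reached 10 reads or more. Reads were seen in 1 library alone for 47 members, 34 of which had a single read in all. The 27 were 13 of 30 H/ACA snoRNAs, 5 of 24 C/D snoRNAs, 5 of 76 miRNA hairpins, 0 of 4 scaRNAs, both host transcripts, Rn7sk and Rpph1. The median row length was 122 bases for H/ACA snoRNAs, 88 for C/D snoRNAs and 90 for miRNA hairpins. RefSeq lists 132 snoRNA genes and 1180 miRNA genes under the same rule, and 54 and 75 of them had a row.

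**Figure D1:**
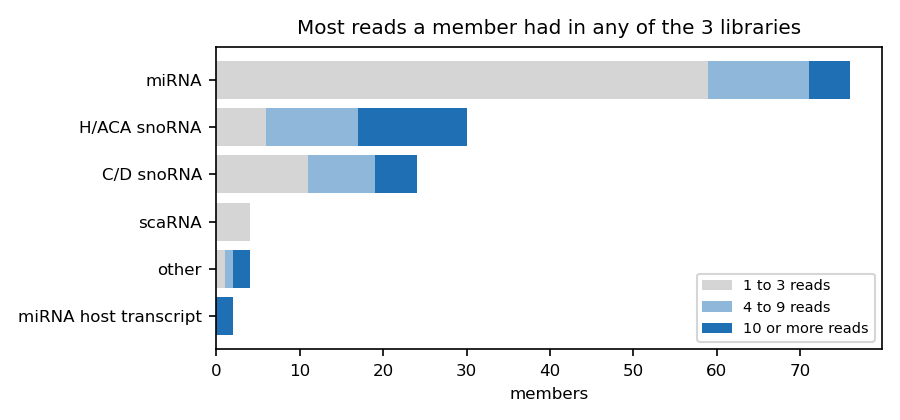
Number of members in each RNA class, divided by the most reads a member had in any of the 3 libraries. Of the 76 miRNA hairpins, 59 never exceeded 3 reads and 5 reached 10 or more, against 6 and 13 of the 30 H/ACA snoRNAs.

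All members together held 2780, 1702 and 1240 reads at 0, 3 and 5 days. Rn7sk made up 40.7%, 20.4% and 1.85% of these reads. Without Rn7sk and the 2 host transcripts the sums were 831, 596 and 688 reads. The snoRNAs came to 427, 326 and 452 reads and the miRNA hairpins to 259, 207 and 196. The snoRNA total was thus lowest at 3 days, whereas the miRNA hairpin total was lower at both treated time points than at 0 days. Of these reads Snora81 alone held 26, 49 and 108 and Mir703 alone 68, 26 and 23. The difference between the classes at 5 days leans on these rows.

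Rn7sk (gene 19817, 332 bases) had 1132 reads in the 0-day library, 347 in the 3-day library and 23 in the 5-day library. Its level was 220 RPKM, then 69.0 and 4.47 RPKM. Ranked by RPKM it went from place 356 among the rows with reads to 1081 and 8768. The ordering was the same in counts and in RPKM, a description of the values the rule used. The log2 ratio, taken throughout on RPKM + 0.1, was -1.67 at 3 days against 0 days, with a 95% interval of -1.85 to -1.496, and -5.59 at 5 days against 0 days (-6.28 to -5.03). The intervals given here are exact (Clopper-Pearson) for a ratio of read counts. They cover counting error only, because copies made by PCR carry no molecular identifier and are not independent. The level at 5 days was 49.2-fold lower than at 0 days, or 2.03% of the level in the 0-day library. Of 13294 rows with at least 10 reads in either library, 1 had a lower ratio, Rnu12, whose value depends on the pseudocount because its later libraries hold 0 reads. The 7SK gene has many near-identical copies in the mouse genome, and how reads that match several places were counted is not given in the sources used here.

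Other rows bear on this value, chosen after their values were seen. Of 7 small nuclear RNA and Y RNA rows, which also lack a poly(A) tail, 5 had fewer reads at 5 days than at 0 days, and their sums were 202, 123 and 81 reads. The 2 rows of U3, a box C/D snoRNA whose symbols (Rnu3a and Rnu3b4) fall outside the members, summed to 19, 1 and 0 reads. Rnu2-10, a U2 spliceosomal RNA, had 83, 42 and 15 reads. Rnu1a1, a U1 spliceosomal RNA, had 37, 25 and 9 reads, and Rnu6, the U6 spliceosomal RNA, had 62, 47 and 50. U1 and U2 were thus lower at 5 days as well, by a smaller factor than Rn7sk, and U6 kept most of its reads. Among the 73 names of a list of transcripts without a poly(A) tail, most of them histone genes, 0 of 29 rows were at least 2-fold higher and 11 lower at 5 days, with a median of -0.84, against 0 and 1 of 32 and a median of -0.30 at 3 days. Over all rows 15.4% were higher and 6.37% lower at 5 days, and over the other rows of 500 bases or less 36.6% were lower with a median of -0.82, near the values of the list. TMM scaling gave 16 lower at 5 days and 3 at 3 days. Removing the trend of ratio on row length, with the median of all rows added back, gave 2 higher and 7 lower at 5 days and turned the 3-day median to 0.26. Without adding the median back the counts were 2 and 10 and the 3-day median 0.18. Values called length-adjusted hereafter have the median added back. Malat1, a nuclear long noncoding RNA, had 39430, 30945 and 21726 reads. Rn45s, the ribosomal RNA precursor, had 22928, 19046 and 19373, and Neat1, whose short isoform does carry a poly(A) tail, had 4833, 6253 and 4841. The largest ratio upwards at 5 days among rows of this list with at least 10 reads in either library was that of Hist1h2bg, a histone H2B gene, with 28, 25 and 54 reads, and Rnu12, the U12 RNA, had 11, 0 and 0. The carry-over of RNA without a tail through the selection was not tested.

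The other RNAs with fixed names are parts of ribonucleoprotein enzymes. Rpph1, the RNA of RNase P, which trims tRNA precursors, had 138, 50 and 35 reads. Its log2 ratio was -1.42 (-1.93 to -0.95) at 3 days and -1.96 (-2.56 to -1.43) at 5 days. It was lower at both treated times, and from 3 to 5 days the interval, -1.22 to 0.10, included no difference. Length-adjusted, its ratios of -0.59 and -0.78 were under 2-fold at both times. Without the median added back they were -0.68 and -1.08. Rmrp, the RNA of RNase MRP, had 1, 4 and 0 reads. Terc, the telomerase RNA, had 1, 0 and 2 reads. Both were at or near the floor of 3 reads, and no difference was detectable at this depth.

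The miRNA host transcripts differed from each other. Mir22hg, from which miR-22 is cut, had 523, 581 and 208 reads, or 19.1, 21.7 and 7.59 RPKM. It was close to its 0-day level at 3 days (log2 0.19, 0.01 to 0.36) and lower at 5 days (-1.32, -1.57 to -1.09). Mir17hg, the host of the miR-17 cluster, known for its role in B cell development, had 294, 178 and 321 reads, or 8.10, 5.02 and 8.85 RPKM. Its ratio was -0.68 (-0.97 to -0.42) at 3 days and 0.13 (-0.11 to 0.36) at 5 days, and the 5-day sign turned to -0.18 when libraries were scaled by TMM. Mir22hg was thus lowest in the 5-day library and Mir17hg in the 3-day library. Mir18, within the miR-17 cluster, had 0, 1 and 1 reads.

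**Figure D2:**
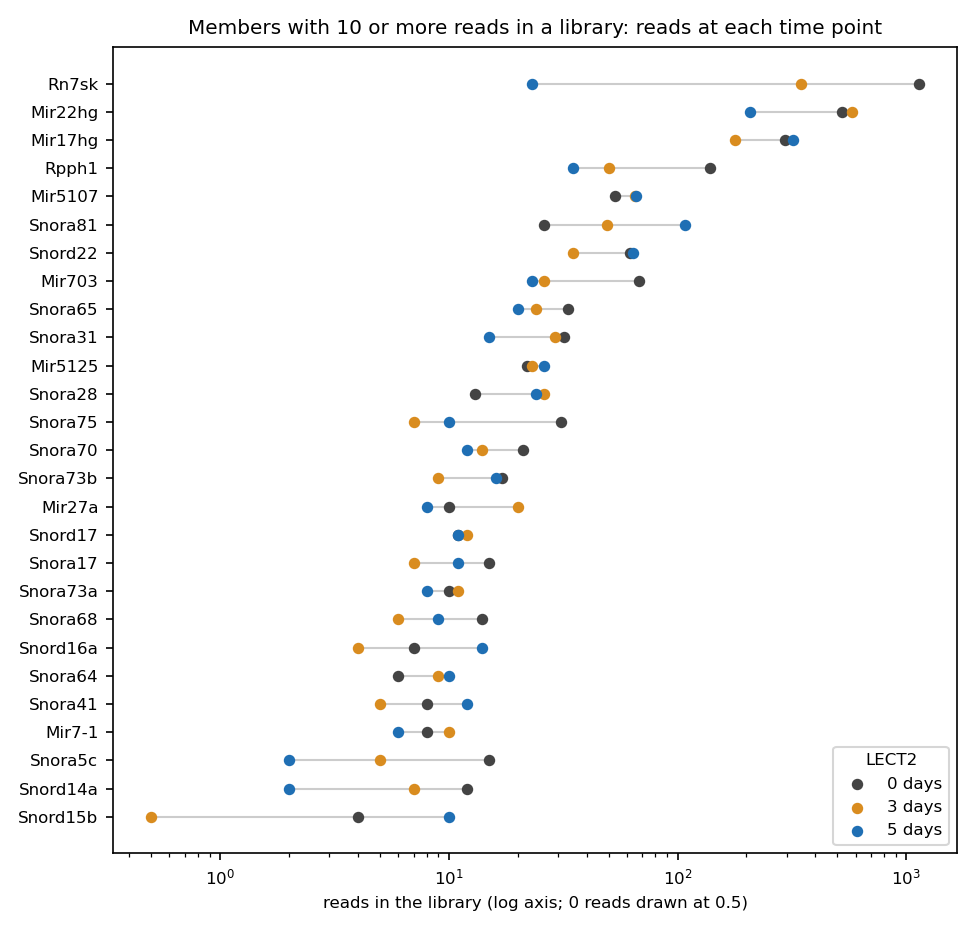
Reads of each of the 27 members with 10 or more reads in any library, on a log axis, with 1 point per library (0, 3 and 5 days of LECT2) and 0 reads drawn at 0.5. Rn7sk spans 1132 to 23 reads, while Snora81 goes the other way, from 26 to 108 reads.

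Few hairpin rows could be compared. Mir703 had 68, 26 and 23 reads, with ratios of -1.35 (-2.06 to -0.68) and -1.56 (-2.31 to -0.86). It has no annotated host gene on its strand, and its count was lower at both treated times. Length-adjusted, its ratios were -0.27 and 0.08, which ends the 2-fold call at both. Mir5107, which overlaps an exon of Cd74, had 53, 65 and 66 reads, and Mir5125, in an intron of Srrm2, had 22, 23 and 26. For Mir5107 and Mir5125 the intervals of both ratios included no difference. Length-adjusted, Mir5107 stood at 1.45 and 2.04 and Mir5125 at 1.24 and 2.003. Mir27a, whose miRNA is made with miR-23a and miR-24 from 1 cluster, had 10, 20 and 8 reads. Its interval at 3 days, -0.13 to 2.29, included no difference, and from 3 to 5 days it was -2.75 to -0.11. Its cluster neighbours Mir23a and Mir24-2 had 1, 0 and 1 and 4, 1 and 1 reads. Mir7-1, in an intron of Hnrnpk, had 8, 10 and 6 reads. Mir680-2 and Mir680-1, which share their mature sequence, had 6, 7 and 4 and 4, 3 and 4 reads. The remaining hairpins stayed at 9 reads or fewer in every library. Mir1938 had 9, 1 and 2, Mir1894 had 7, 2 and 2 and Mir3091 had 6, 0 and 0.

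H/ACA snoRNAs were the class with the most rows above 10 reads. Snora81 had 26, 49 and 108 reads at 0, 3 and 5 days, which is 10.2, 19.7 and 42.4 RPKM. Its log2 ratio was 0.94 (0.24 to 1.70) at 3 days and 2.04 (1.43 to 2.73) at 5 days. It was higher at each later time. Snora28 had 13, 26 and 24 reads, with ratios of 1.02 (0.02 to 2.12), or 0.94 under TMM scaling, and 0.88 (-0.15 to 1.98). Snora75 had 31, 7 and 10 reads, with ratios of -2.08 (-3.54 to -0.90) and -1.61 (-2.82 to -0.57). Snora5c had 15, 5 and 2 reads. Snora75 and Snora5c thus had lower counts at both treated times. Length-adjusted, Snora75 stood at -1.02 at 3 days and 0.00 at 5 days, and Snora5c at -0.43 and -1.14. At 2 reads the 5-day level of Snora5c is under the floor. Snora31 had 32, 29 and 15 reads and was lower in the 5-day library (-1.08, -2.08 to -0.17), a direction that turned with the length trend removed (0.54 length-adjusted and 0.24 without the median added back). Snora65 had 33, 24 and 20 reads and Snora70 had 21, 14 and 12, each with an interval that included no difference at both times. The pair Snora73a and Snora73b had 10, 11 and 8 and 17, 9 and 16 reads. Snora17 had 15, 7 and 11 reads, Snora68 had 14, 6 and 9, Snora41 had 8, 5 and 12 and Snora64 had 6, 9 and 10.

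C/D snoRNAs gave fewer comparable rows. Snord22 had 62, 35 and 64 reads, with ratios of -0.79 (-1.43 to -0.17) at 3 days and 0.05 (-0.48 to 0.57) at 5 days, the latter turning to -0.26 under TMM scaling. Length-adjusted these were 0.26 and 1.63, or 0.17 and 1.33 without the median added back, so the 3-day direction turned and the 5-day ratio passed 2-fold. Snord16a had 7, 4 and 14 reads, and its ratio from 3 to 5 days was 1.74 (0.10 to 3.83). Snord22 and Snord16a had their lowest counts at 3 days. Snord15b had 4, 0 and 10 reads. Snord14a had 12, 7 and 2 reads, lower at 5 days (-2.51, -5.79 to -0.42), a level under the floor. Length-adjusted its 5-day ratio was -0.78, which ends the 2-fold call, or -1.08 without the median added back. Snord17 had 11, 12 and 11 reads. The 4 scaRNAs, guides for spliceosomal RNAs, summed to 5, 9 and 3 reads and none exceeded 3 reads in a library.

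Taking all members with at least 10 reads in either library, 2 of 23 (8.7%) were at least 2-fold higher and 7 (30.4%) lower at 3 days against 0 days, where 4.44% and 2.94% of all 13141 rows were. With TMM scaling the members came to 0 higher and 7 lower, and length-adjusted to 8 higher and 1 lower, or 7 and 1 without the median added back. The median of the members was -0.54, beside 0.09 over all rows. At 5 days against 0 days 2 of 26 (7.69%) were higher and 8 (30.8%) lower, where 15.4% and 6.37% of 13294 rows were, and the medians were -0.31 and 0.30. With TMM scaling these counts were 1 and 10, and length-adjusted they turned to 15 and 3, or 11 and 5 without the median added back. From 3 to 5 days 4 of 24 (16.7%) were higher and 3 (12.5%) lower, where 2.49% and 3.72% of 13160 rows were, with medians of -0.08 and 0.25, and TMM scaling gave 2 and 4, and the length-adjusted counts were 7 and 2, or 5 and 3 without the median added back. Rn7sk is among the lower members in each comparison as reported. At 3 days it was under 2-fold with the length trend removed (-0.84 length-adjusted and -0.93 without the median added back). Counting intervals lay above 0 for 3 (13%) and below 0 for 7 (30.4%) of 23 members at 3 days, beside 37.2% and 24% of all rows and 0.877% and 68.4% of the other rows of 500 bases or less. At 5 days they lay above 0 for 1 (3.85%), Snora81, and below 0 for 8 (30.8%) of 26, beside 50.8% and 21.2% of all rows and 1.79% and 74.1% of the other short rows. From 3 to 5 days they lay above 0 for 5 (20.8%) and below 0 for 4 (16.7%) of 24, beside 48.9% and 14.4% of all rows and 20.2% and 25.7% of the other short rows. Intervals narrow as reads increase, so these shares also move with depth.

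**Figure D3:**
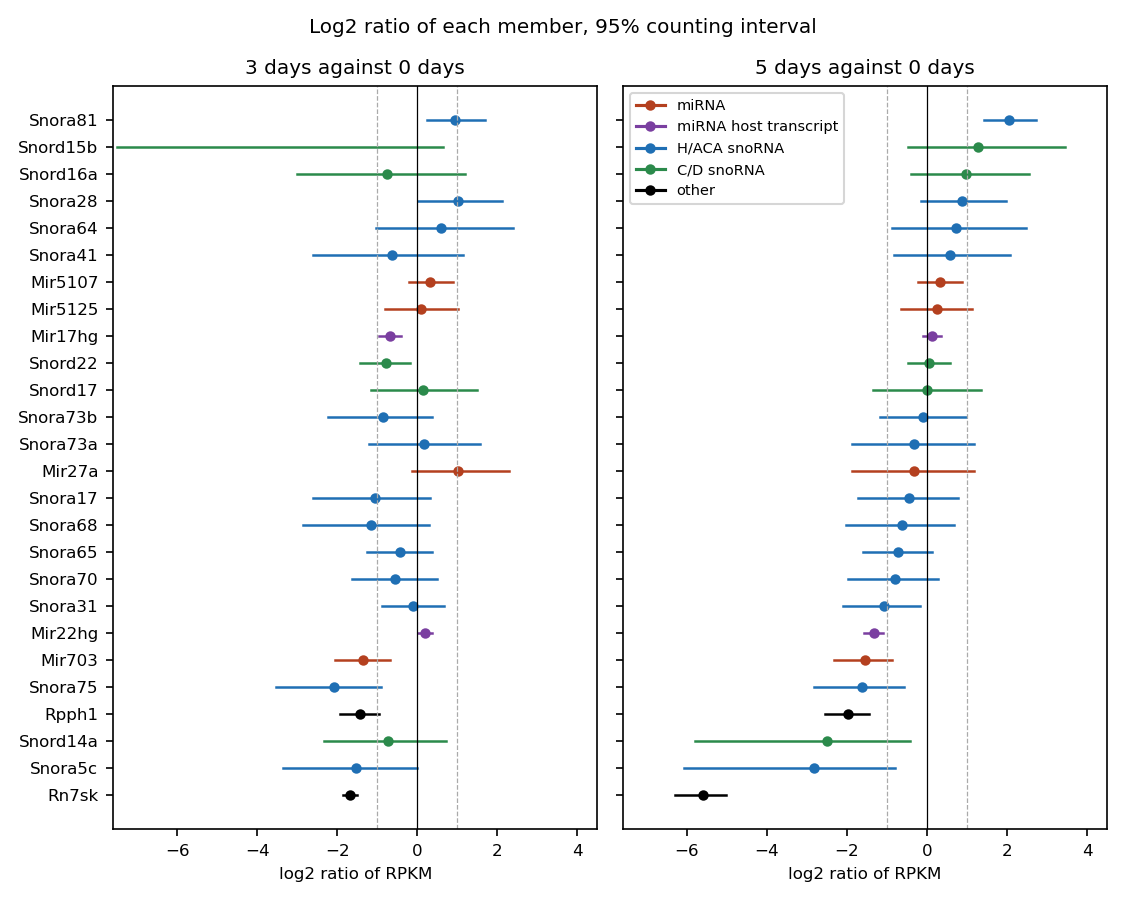
Log2 ratio of RPKM for the 26 members with at least 10 reads at 0 or 5 days, at 3 days (left) and 5 days (right) against 0 days, with 95% counting intervals as bars, cut at the axis limits, and dashed lines at 2-fold. Members with 0 reads in a library have a bar and no point. Snora81 stands at 2.04 and Rn7sk at -5.59 at 5 days.

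Row length moved with the ratio in the whole table. Over the other rows of 500 bases or less, 0% were at least 2-fold higher and 21.9% lower at 3 days, and 0.893% and 36.6% at 5 days, with medians of -0.64 and -0.82. From 3 to 5 days the shares were 0.917% and 16.5%. Other rows of over 8000 bases had medians of 0.57 and 0.81. The members' shares of 30.4% lower at 3 days and 30.8% at 5 days were near those of other short rows. Their shares higher, 8.7% at 3 days, 7.69% at 5 days and 16.7% from 3 to 5 days, were above those of these rows and rest on 2, 2 and 4 members. Most of the other short rows are over 200 bases, so they are not matched in length to the members. Of the 140 members, 138 are 500 bases or less. The 2 host transcripts are longer. When a smooth trend of ratio on length was subtracted, Rn7sk stood at -0.93 at 3 days and -4.71 at 5 days and Rpph1 at -0.68 and -1.08, while Snora81 stood at 1.84 and 3.22. With the median of all rows, 0.09 and 0.30, added back, these were -0.84 and -4.41, -0.59 and -0.78, and 1.93 and 3.52. The 2-fold call of Rn7sk at 3 days thus ended in both forms. Snora75 and Mir703 stood at -0.30 and -0.22 at 5 days, and at 0.00 and 0.08 with the median added back. Only 6 rows of 200 bases or less outside the members had enough reads, and each local fit used a span of 0.3 of all rows. The trend at snoRNA lengths therefore rests mainly on longer rows. At 100 bases, the length of Mir1938, it stood at -1.01 at 3 days and -1.37 at 5 days. All rows of 200 bases or less, most of them members, had medians of -0.60 and -0.63, and the 6 outside the members -0.80 and -1.55. Length-adjusted values of short members depend on this fit, which may subtract too much.

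**Figure D4:**
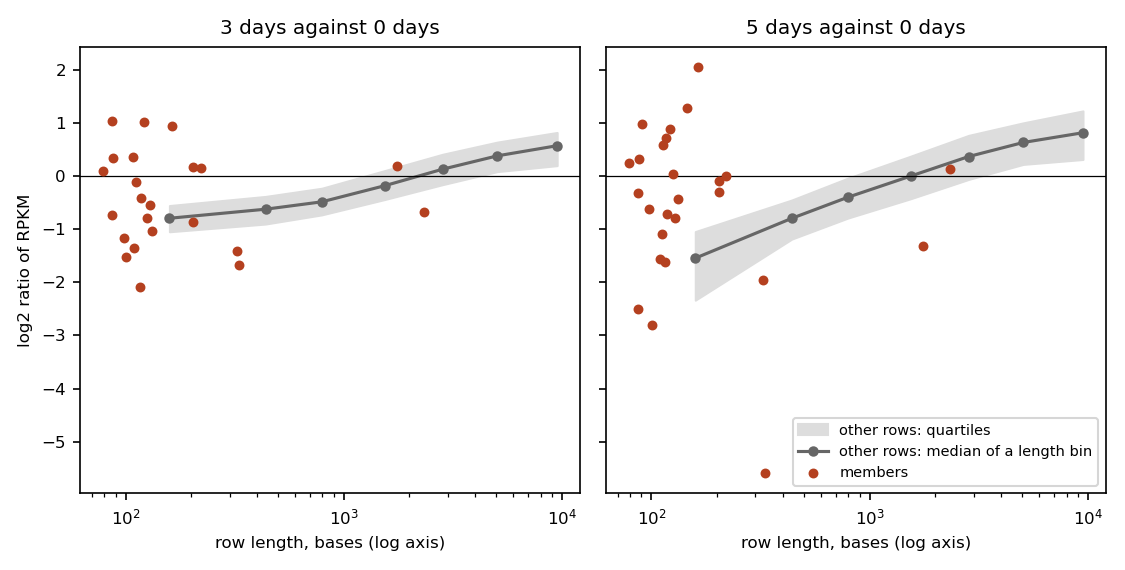
Log2 ratio of RPKM against row length on a log axis, at 3 days (left) and 5 days (right) against 0 days. Red points are members with at least 10 reads in either library, the grey line is the median and the band the quartiles of the other rows in bins of length. The grey line passes from below 0 at short rows to 0.81 at rows over 8000 bases at 5 days, and Rn7sk lies far under it at -5.59.

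Members were then set beside the gene that holds them. On the same strand, 99 members lay in a gene with a row, 44 over an annotated exon and 55 within an intron, and 21 snoRNAs lay in ribosomal protein genes. The reads of a member and of an overlapping host exon or unspliced intron cannot be told apart. Over the 17 members with more than 3 reads at both 0 and 5 days and at least 10 at either, 10 had a higher ratio than their host and 7 a lower one. Host rows are longer, and with the length trend removed from both, 17 of 17 stood above their host at 5 days and 14 of 16 at 3 days. The trend is lower at the members' lengths than at those of their hosts, so removing it raised every gap. These counts thus follow in large part from the correction and are no result about the members. The sign of the host was shared by 12 of 16 members at 3 days, by 5 of 17 at 5 days and by 9 of 16 from 3 to 5 days. Length-adjusted, these counts were 7, 8 and 10. Pearson's r between member and host ratios was 0.34 over the 16 members that met the same limits at 0 and 3 days and -0.09 over the 17, points that share libraries and in part host genes.

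Among the 17 members compared with their host at 5 days, the widest gaps were those of Snora81, Snora75, Snord15b, Snora41, Snora28 and Mir5125. Eif4a2, a translation factor gene that holds Snora81, had a ratio of -0.21 at 3 days and -0.47 at 5 days, and the RPKM of Snora81 was 6.08%, 13.6% and 35.1% of that of Eif4a2. Eif5, holding Snora28, had 0.02 and -0.40. Snora81 was thus higher while its host was lower. Snora28 had a 3-day interval that lay just above 0 (0.02 to 2.12) with a level host, and at 5 days its interval included no difference. Rps3, a ribosomal protein gene that holds Snord15b, had -0.30 at 5 days where the snoRNA had 1.28 (-0.47 to 3.45), and Eef1b2, an elongation factor gene that holds Snora41, had -0.77 where the snoRNA had 0.58 (-0.83 to 2.08). Both of these snoRNA intervals included no difference. Ncl, the nucleolin gene that holds Snora75, had -0.28 and 0.35, and Tbrg4, holding Snora5c, had -0.09 and 0.50, whereas both snoRNAs had lower counts. With the length trend removed, the gap of Snora75 to Ncl went from -1.96 to 0.11 at 5 days and that of Snora5c to Tbrg4 from -1.43 to -0.25 at 3 days. Srrm2, a splicing factor gene, had 0.73 and 1.42 and its intronic Mir5125 0.10 and 0.24, the latter -0.07 under TMM scaling. The gap of Mir5125 to Srrm2 turned from -1.18 to 1.05 at 5 days with the length trend removed. Snhg1, a noncoding host of several C/D snoRNAs, had -0.69 and -0.73, near Snord22 at 3 days and under it at 5 days. Rpl12 had -0.66 and -0.41, Rpl10 had -0.52 and -0.40 and Tpt1 had -0.59 and -0.65. These genes hold Snora65, Snora70 and Snora31, whose own 5-day ratios turned sign with the length trend removed. Cd74, the invariant chain gene that holds Mir5107, had -0.42 and -0.53.

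**Figure D5:**
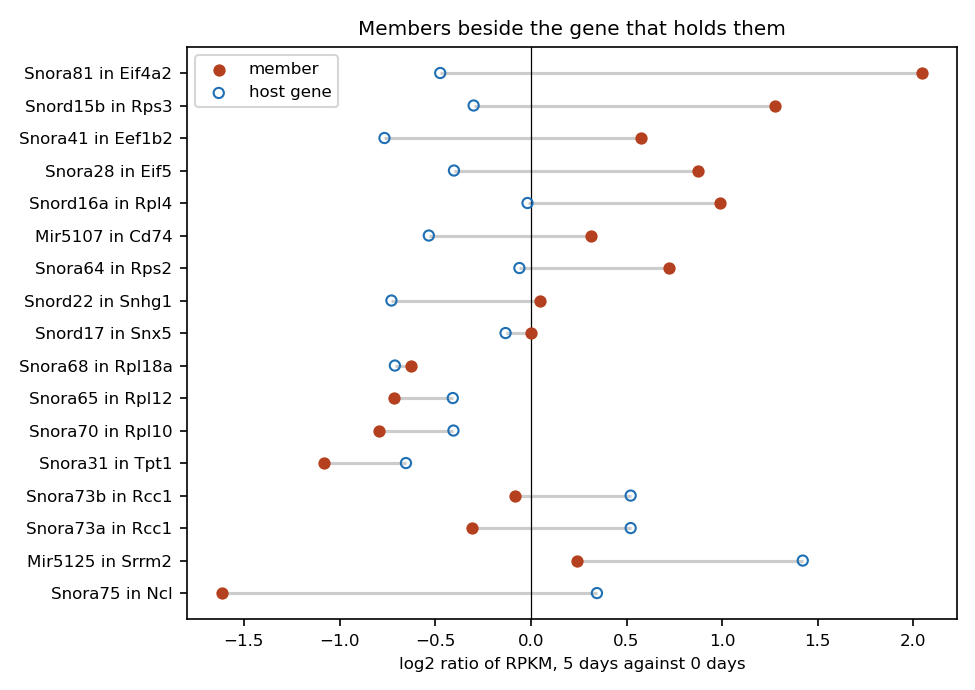
Log2 ratio of RPKM at 5 days against 0 days for the 17 members with more than 3 reads in both libraries and at least 10 in either (filled) and for the gene that holds each (open), joined by a line and ordered by the gap. The ratios are not length-adjusted. The widest gaps are Snora81 at 2.04 with Eif4a2 at -0.47, and Snora75 at -1.61 with Ncl at 0.35.

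Proteins that bind or process these RNAs were read from gene lists, counted by the same 2-fold threshold, which 4.44% of all rows passed upwards and 2.94% downwards at 3 days, and 15.4% and 6.37% at 5 days. In the 7SK and P-TEFb list, no gene of 20 was past this threshold at 3 days, and 3 were above it and 0 below it at 5 days, near the share over all rows, with medians of -0.06 and 0.10. With TMM scaling the 5-day counts were 0 and 2 and the median was -0.21. Length-adjusted they were 2 and 0 with a median of -0.00444, and without the median of all rows added back 0 and 1 with -0.31. Larp7, the 7SK chaperone, had ratios of -0.56 and -0.29, and Hexim1, the inhibitor subunit, had -0.57 and -0.79 with 2344, 1537 and 1355 reads. Cdk9, the kinase of P-TEFb, had -0.28 and -0.42, and its cyclin Ccnt2 had 0.96 and 1.30. No gene of this list was lower by a factor near that of Rn7sk. Among 24 genes of RNA polymerase III transcription, 0 were past 2-fold at 3 days and 3 higher and 0 lower at 5 days, with medians of 0.02 and 0.45, near the all-row medians of 0.09 and 0.30, and TMM scaling gave 1 and 0. Length-adjusted 2 were higher at 5 days, and 0 without the median added back. Snapc4, a subunit of the activator of 7SK-type promoters, had 0.65 and 1.39, Polr3k had -0.71 and -0.43 and Maf1, the polymerase III repressor, had -0.07 and -0.15.

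Of 9 genes for RNase P and MRP proteins, 2 stood lower (0 higher) after 3 days and 0 were past 2-fold after 5 days, with medians of -0.55 and -0.21, and TMM scaling gave 0 and 1 at 5 days. Length-adjusted, 1 stood lower after 3 days with a median of -0.20, and the 5-day median turned to 0.35, or 0.05 without the median of all rows added back. Rpp38 had 69, 28 and 37 reads and Pop1 had 158, 139 and 259. In the C/D snoRNP list 0 of 10 were past 2-fold at either time, with medians of -0.41 and 0.10, the latter -0.21 under TMM scaling. Nop58, a core protein, had -0.76 and -0.30 and Nop56, its partner, -0.33 and 0.20. In the H/ACA and telomerase list 0 of 11 were past 2-fold at 3 days and 2 higher and 0 lower at 5 days, with medians of -0.17 and 0.59, and TMM scaling gave 1 and 0. Dkc1, the pseudouridine synthase, had -0.36 and 0.35, and Tert, the telomerase protein, had 9, 15 and 34 reads. Among 28 snoRNA host genes, 1 stood at least 2-fold lower (0 higher) after 3 days and 3 lower (1 higher) after 5 days, with medians of -0.56 and -0.30. With TMM scaling 8 were lower and 0 higher at 5 days, and length-adjusted 1 was lower and 2 higher with a median of 0.20, or 2 and 1 with a median of -0.10 without the median of all rows added back. Snhg8 had 339, 204 and 115 reads and Eef2, an elongation factor, had 22953, 27327 and 39363.

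The miRNA lists had their larger ratios upwards. Of 13 miRNA processing genes, 2 stood at least 2-fold higher after 3 days and 6 after 5 days, with 0 lower. Over all rows 4.44% and 15.4% were higher. The medians of the list were 0.21 and 0.99, beside all-row medians of 0.09 and 0.30. TMM scaling gave 2 higher and 1 lower at 5 days, and the length-adjusted counts were 0 higher at 3 days and 3 higher and 1 lower at 5 days, or 1 and 1 at 5 days without the median added back. Xpo5, the exporter of hairpins, had 278, 593 and 1130 reads (1.11 and 2.002). Ddx17, a Drosha cofactor, had 0.70 and 1.06, while Lin28a, which blocks let-7 processing, had 1038, 1033 and 574 reads. Of 11 miRNA silencing genes, 3 stood higher after 3 days and 4 after 5 days, with 0 lower, with medians of 0.35 and 0.44, or 0.02 and 0.06 length-adjusted and -0.06 and -0.24 without the median added back. Eif2c2, also named Ago2, had 325, 1133 and 1834 reads (1.80 and 2.45), and Eif2c4 had 341, 370 and 296. Of 14 miRNA host genes, 2 stood higher (1 lower) after 3 days and 2 (2 lower) after 5 days, with medians of 0.18 and 0.48. With TMM scaling and with either form of the length trend removed, 1 was higher at 3 days. The 5-day median was 0.17 with TMM scaling and 0.35 length-adjusted, or 0.05 without the median added back. Nrip1 had 55, 181 and 369 reads and H19, the host of miR-675, had 16, 2 and 2.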

How the data were processed

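BM RNA-seq libraries of 1 sample per group were analysed from the tables the authors deposited for each pair of time points. The deposited counts are whole reads per gene, not normalized, and the deposited RPKM values are these counts per gene length, scaled to the total of reads on listed genes. The methods name Cufflinks 1.0.3 and the submitters' processing notes name the genome build mm8. The aligner is not given in the sources used here. The deposited tables also hold the authors' log2 ratios, P values and false discovery rates, which were not used. Rows without reads are listed at 0.01 RPKM and were set to 0.

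The members and gene lists were chosen with earlier results of these data known. Ratios are log2 of RPKM + 0.1, calls are at least 2-fold among rows with 10 reads or more in either library, and 3 reads is the floor. There are no replicates and no p-values. Intervals are exact 95% Clopper-Pearson intervals (scipy 1.17.1). Named members are the fixed-name RNAs and host transcripts, the 20 with most reads, the 5 largest rises and falls of each comparison, and their cluster, seed and host relatives. Snord14a, Mir1938, Mir1894 and Mir3091 were named after their values were seen. In each list the 3 genes with most reads and the largest rise and fall could be named, and others named there were chosen after their values were seen. Sequences come from GENCODE M21 and RefSeq (GRCm38.p6). No coordinate was converted to mm8. Alternatives used edgeR 4.0.16 (TMM) and DESeq2 1.42.0 (size factors) for scaling only, other pseudocounts, filters, thresholds and a lowess length trend (statsmodels 0.14.6), subtracted with and without the median of all rows added back. The scripts were tested on simulated data.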

Additional observations from a re-analysis of the deposited data

How the results depend on the processing

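No paired analysis was possible because each group is 1 library and its replicate number was given in accession order only. With 1 library per group, no library could be left out within a group, and the comparison of 5 with 3 days is the one without the 0-day library. Scaling by TMM lowered the median ratio of all rows from 0.09 to 0.00 at 3 days, from 0.30 to 0.00 at 5 days and from 0.25 to 0.03 between 3 and 5 days, so ratios near 0 change sign with it.

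The counts of members at least 2-fold higher (lower), 2 (7) at 3 days against 0 days, 2 (8) at 5 days against 0 days and 4 (3) at 5 days against 3 days, moved as follows. Higher counts in these 3 comparisons were 0, 1 and 2 under TMM or median-of-ratios scaling. With pseudocount 1 they were 0 and 1 against 0 days, and 0 at 3 days with reads outside the 100 most abundant genes. Requiring 20 reads gave 4 lower at 3 days, 1 higher at 5 days and 1 higher between 3 and 5 days. Requiring 1 RPKM instead of 10 reads gave 10 (30), 14 (31) and 18 (15), and no minimum gave 30 (45), 35 (43) and 39 (32). These admit 72 to 85 and 123 to 127 members. A 4-fold threshold gave 0 (1), 1 (3) and 1 (1). Removing the length trend and adding the median of all rows back gave 8 (1) at 3 days, 15 (3) at 5 days and 7 higher between 3 and 5 days, and turned the medians from -0.54 to 0.392 and from -0.31 to 1.10. It also turned the sign of 13 of the 5-day ratios of named members. Of those that had been at least 2-fold, these were Mir703 (0.0828), Snora31 (0.545), Snora75 (0.00022) and Mir1894 (0.00838). Of those under 2-fold, they were Snora65, Snora70, Snora73a, Snora73b, Snora17, Snora68, Mir27a, Mir7-1 and Mir680-2. At 3 days it turned Snord22, Snora65, Snora31, Snora70, Snora73b, Snord16a, Snora41, Mir680-1 and Snord14a, and from 3 to 5 days Mir5107, Mir703, Snora65, Snora28, Snora70 and Snord17. Removing the trend without adding the median back, also added after the data were seen, gave 7 (1) and 11 (5) against 0 days and medians of 0.305 and 0.795, and of the 4 ratios turned Snora31 alone (0.244). The cause was not tested.

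Leaving out Rn7sk, an alternative added after the data were seen, gave 2 (6), 2 (7) and 4 (2). Of 873 alternative values of the 34 named members with more than 3 reads in a library, 814 stayed within the counting interval of the reported value and 54 moved out of it, 26 and 24 of them under the length trend with and without the median added back, beside the 5 reversed values of ratios of at least 2-fold. Counting ratios of any size, 68 values changed sign, 28 and 22 under these forms of the length trend, 7 each with TMM and median-of-ratios scaling and 4 with reads outside the 100 most abundant genes. Of the 873 values, those with RPKM recomputed from the counts repeat the reported ones almost by construction, and intervals at low counts are wide. The share that stayed is therefore no measure of robustness. Depth limits most members, since 81 of 140 never exceeded 3 reads.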
